A study of Mus musculus with 238 samples.

Results

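The collagen genes were taken as all rows of the deposited count table whose symbol has the form Col, a number, the letter a and a number. This gave 44 genes of 21076 rows. By structure they comprise 11 fibrillar collagen chains, 6 basement membrane chains, 3 short chain network chains, 7 beaded filament chains, 1 anchoring fibril chain, 9 chains of the FACIT group (fibril-associated collagens with interrupted triple helices), 4 transmembrane chains, 2 multiplexin chains and Col26a1, which stands outside these classes. Their levels were described across 15 brain regions and liver in control mice, and their changes were measured under a diet and under a plasma treatment.

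Collagens are built from 3 chains wound into a triple helix. Fibrillar chains such as Col1a1 and Col1a2 give tissue its tensile strength, whereas the chains of type IV collagen form the sheet of the basement membrane that surrounds blood vessels. In the brain, fibrillar collagen is laid down mainly by fibroblasts of the meninges and of large vessels, basement membrane collagen mainly by endothelial cells and pericytes, and several transmembrane and FACIT chains are made by neurons.

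All mice were 19 months old and of the C57BL/6JN strain. In the diet experiment 5 female mice were dietary restricted (aDR, with their livers labelled DR) and 4 female mice were fed ad libitum (AL), which gave 140 libraries with liver included. In the plasma experiment 3 male mice received young mouse plasma (YMP) and 4 male mice received phosphate-buffered saline (PBS) by retro-orbital injection, which gave 98 libraries. Sex and experiment therefore cannot be told apart, and no level was tested between the 2 experiments. No transgene or deletion is named for any group. Groups held 3 to 5 libraries in each region, except for the YMP corpus callosum group, which held 2.

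Each library held between 605614 and 32410417 counts (0.606 to 32.4 M, where M stands for mega). The median library held 8.44 M counts, and 6 were below 2 M counts. Levels are given as CPM, the counts of a gene per M counts of its library. By median, marker genes of cerebellum, caudate putamen, hypothalamus, thalamus and olfactory bulb were highest in the region so labelled. Those of hippocampus and of cortex (motor and visual) were too, and the 2 checked hindbrain genes were highest in medulla and pons. Single libraries fell short of this. The lowest hypothalamus library held 1.68 CPM of the hypothalamus markers, against a median of 1309 CPM. The lowest pons library held 2.79 CPM of the hindbrain genes, whereas cerebellum libraries held at least 7.23 CPM. The 2 SVZ check genes were higher in olfactory bulb (median sum 93.97 CPM) than in the SVZ (65.4 CPM). The 5 hepatocyte markers summed to between 77691 and 101024 CPM in liver. The 11 markers of choroid plexus epithelium did not keep to the choroid plexus libraries. In the corpus callosum their sum was 5160, 13883 and 19209 CPM in the PBS libraries against 9 and 24 CPM in the YMP libraries, and in the SVZ (subventricular zone) it lay between 2978 and 20363 CPM in the PBS libraries against 32 to 61 CPM in the YMP libraries. In AL mice it ran from 49 to 11674 CPM in the corpus callosum and from 70 to 3469 CPM in the SVZ. Choroid plexus libraries themselves ranged from 159 to 15596 CPM in YMP mice and held neuronal transcripts, with 3 neuronal markers summing to at least 2914 CPM. Several collagen results below move with this sum, and its value is given beside them. In bulk tissue, fewer cells of a type and less RNA per cell cannot be told apart.

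A pair of sequence stretches belongs to the results that follow, both from RefSeq on GRCm38.p6 and written 5′ to 3′ with GC boxes (GGGCGG on either strand) in capitals. Col4a1, the gene called lower across brain regions under the diet, lies at chr8:11198423-11312826 on the minus strand. Its partner Col4a2 lies at chr8:11312805-11449287 on the plus strand, so the pair starts head to head. The stretch from the start of Col4a2 to the start of Col4a1, chr8:11312805-11312826, is 22 bases long, is part of an exon of both genes and holds 1 GC box on the plus strand. Col8a1, the gene called lower in the corpus callosum of YMP mice on 2 YMP libraries, lies at chr16:57624258-57754737 on the minus strand. The 250 bases before its start, chr16:57754738-57754987, hold 4 GC boxes and neither a TATA box (TATAAA) nor a CCAAT box (CCAAT) on either strand.
Col4a1 and Col4a2, shared start: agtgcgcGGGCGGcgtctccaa
Col8a1, upstream: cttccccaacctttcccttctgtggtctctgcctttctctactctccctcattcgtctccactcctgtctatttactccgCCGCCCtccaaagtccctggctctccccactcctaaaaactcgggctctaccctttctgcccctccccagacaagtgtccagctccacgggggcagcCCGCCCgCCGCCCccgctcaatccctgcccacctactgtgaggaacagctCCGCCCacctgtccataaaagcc
Of the 44 collagen genes, 35 had at least 1 promoter entry (250 bases before to 50 after the start), 38 entries in all. A GC box was found in 23 of the 38 entries (60.5%), against 35.7% of 32851 promoters of the same length, a CCAAT box in 13 (34.2%, against 37.4%) and a TATA box in 5 (13.2%, against 13.6%). These matches describe letters in a window and no binding.

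Which collagen is abundant depended on the brain region. All 43 collagen genes that passed the filter on low counts differed between the 15 regions in AL mice and again in PBS mice, by edgeR's quasi-likelihood F test with Benjamini-Hochberg adjusted p under 0.05. This is little more than the background, since 98.1% of all genes tested did so in AL mice and 96.1% in PBS mice. Col6a6, a beaded filament chain, was the gene that the filter removed. Col6a1 was the highest of the 44 per kilobase of exon in AL brain (7.09 CPM per kilobase over the mean of the regions), followed by Col9a3 (6.70), Col4a2 (3.48), Col19a1 (2.82) and Col9a2 (2.76). At the other end, Col6a5 and Col6a6 lay at 0.0712 and 0.0398 CPM per kilobase. The order of the 15 regions was much the same in both control groups, which are separate animals: Spearman's rho between the AL and PBS region means had a median of 0.875 over the 44 genes (lowest 0.525, for Col4a5, and highest 0.989, for Col19a1), and 28 genes had their highest mean in the same region in both.

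**Figure D1:**
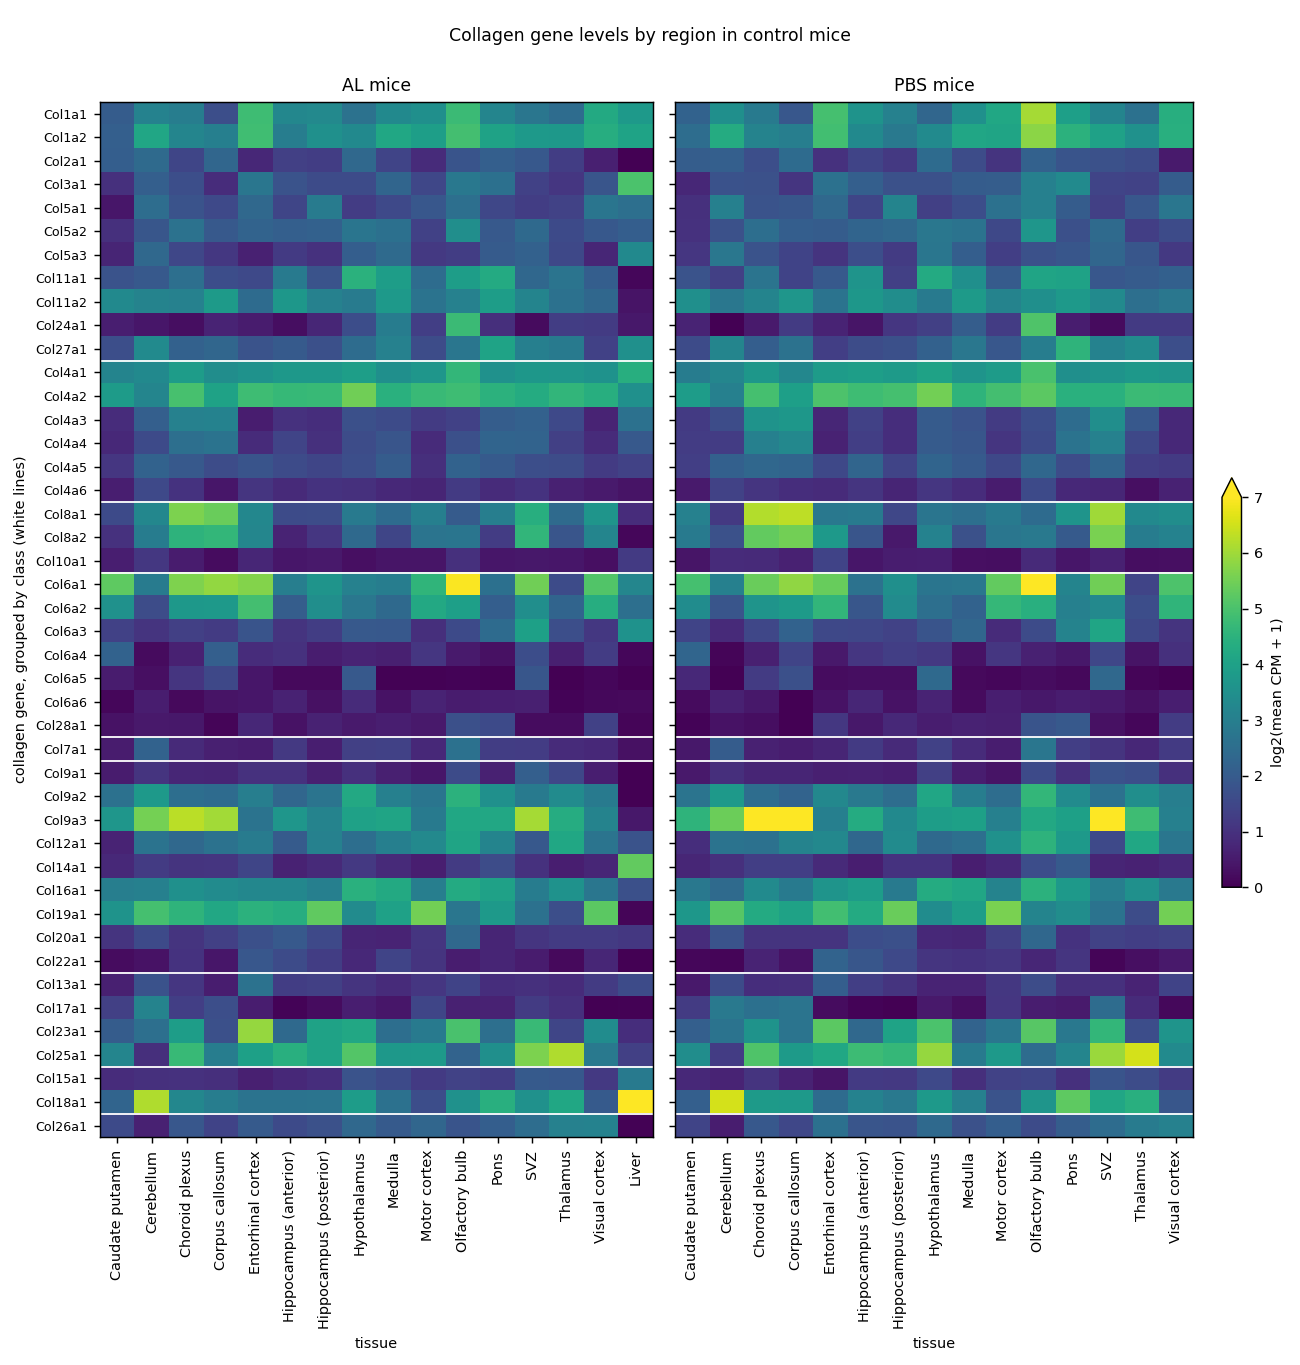
Mean level of each collagen gene (rows, grouped by class) in each tissue (columns) of AL mice, with liver, and of PBS mice, as log2(mean CPM + 1); the colour scale ends at 7, or 127 CPM. Col6a1 in olfactory bulb, Col25a1 in thalamus and Col18a1 in cerebellum stand out in both groups. So does the block of Col8a1, Col8a2 and Col9a3 in choroid plexus, corpus callosum and SVZ. Col18a1 also stands out in liver, which was sequenced in the diet experiment only.

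Olfactory bulb was the region with the most collagen genes at their highest, 10 of 44 in AL mice and 13 in PBS mice. Set against the mean of the other regions in the same fit (choroid plexus left out of that mean), 21 of 43 collagen genes were higher there in AL mice (48.8%, against 33.5% of all genes) and 25 in PBS mice (58.1%, against 32.3%), and 20 genes were called higher in both. Those 20 included the fibrillar chains Col1a1, Col1a2, Col3a1, Col5a1, Col5a2, Col11a1 and Col24a1, the basement membrane chains Col4a1, Col4a2 and Col4a5, and Col6a1 and Col6a2. Col19a1 and Col25a1 were the 2 genes called lower in olfactory bulb in both groups of mice, where 33.3% (AL) and 29.8% (PBS) of all genes were called lower. Caudate putamen was at the other end: 23 of 43 collagen genes were lower there in AL mice (53.5%, against 27.3% of all genes) and 19 in PBS mice (44.2%, against 23.3%), of which 18 were shared. The fibrillar chains Col1a1, Col1a2, Col3a1, Col5a1, Col5a2, Col5a3, Col11a1 and Col27a1 were among the 18. A further 5 genes were called higher in caudate putamen in both groups (against 28.5% and 23.2% of all genes called higher), namely Col2a1, Col6a1, Col6a4, Col6a5 and Col17a1. In the SVZ, 17 collagen genes in AL mice and 18 in PBS mice were called higher (39.5% and 41.9%, against 24.5% and 25.7% of all genes).

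Col1a2, the fibrillar chain that joins Col1a1 in type I collagen, was highest in olfactory bulb. It read 21.6, 28.3, 31.7 and 34.6 CPM in the 4 AL mice and 40.9, 42.0, 49.4 and 84.1 CPM in the 4 PBS mice. Caudate putamen was the lowest region, with means of 3.36 CPM in AL and 4.65 CPM in PBS mice. Entorhinal cortex (28.03 ± 14.5 CPM, SD, n = 3) did not differ from olfactory bulb (29.0 ± 5.6, n = 4) beyond its spread in AL mice. Col1a1 followed the same course, with 27.2 ± 10.3 CPM in AL entorhinal cortex and 26.2 ± 5.4 CPM in AL olfactory bulb against 2.22 CPM in corpus callosum.
Col24a1, a minor fibrillar chain, had the largest ratio of highest to median region of the 44. It read 22.7, 24.5, 26.0 and 31.1 CPM in AL olfactory bulb and 29.97, 32.5, 34.1 and 34.2 CPM in PBS olfactory bulb. Medulla was next at 6.71 ± 2.6 CPM (AL), and the olfactory bulb mean was 38.9 times the median region. The contrast of olfactory bulb with the other regions was 4.88 on the log2 scale in AL mice (SE 0.23, adjusted p = 1.43e-23) and 5.51 in PBS mice (SE 0.29, adjusted p = 5.20e-20). Col11a1 peaked in hypothalamus (21.0 ± 4.7 CPM in AL, 18.4 ± 5.1 CPM in PBS), while Col11a2 was among the 5 evenest genes in AL mice, between 4.05 CPM in visual cortex and 13.997 CPM in pons of AL mice.

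The basement membrane chains split in 3. Col4a1 and Col4a2, which assemble with each other around nearly all vessels, were present in every region. Col4a2 ran from 8.15 CPM in cerebellum to 43.6 CPM in hypothalamus of AL mice, and its 4 hypothalamus libraries read 37.3, 37.5, 47.7 and 51.7 CPM. Col4a1 ran from 8.004 CPM in caudate putamen to 23.9 CPM in olfactory bulb, where its libraries read 20.8, 24.0, 24.4 and 26.2 CPM in AL and 28.2, 28.7, 29.3 and 36.0 CPM in PBS mice. In AL mice both belonged to the 5 genes with the smallest ratio of highest to median region (2.02 for Col4a1 and 1.87 for Col4a2), and in PBS mice the ratios were 2.52 and 1.69.
Col4a3 and Col4a4, chains of the kidney and lung type of basement membrane, were low in most regions. Over the 15 region means, the Spearman correlation of Col4a3 with the summed choroid plexus markers was 0.75 in AL and 0.70 in PBS mice. In AL mice it was also 0.75 with the summed ependyma markers and 0.65 with the summed oligodendrocyte markers. In the corpus callosum Col4a3 read 0.834, 2.55 and 19.3 CPM in AL mice and 4.05, 11.1 and 21.2 CPM in PBS mice, with the highest value in the library with the highest marker sum in either group. Col4a5, their X-linked partner, was the evenest of all 44, at no more than 3.64 CPM in AL mice with a ratio of 1.65.

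Of the beaded filament chains, Col6a1, which forms the microfibril of type VI collagen with Col6a2 and Col6a3, stood far above the rest. It read 114.7, 123.1, 125.3 and 135.1 CPM in AL olfactory bulb and 135.8, 139.4, 142.9 and 151.9 CPM in PBS olfactory bulb, while the thalamus means were 2.04 and 1.68 CPM. No olfactory bulb library overlapped with a library of the next region in AL mice, corpus callosum, at 57.8 ± 2.6 CPM. The contrast was 3.04 (SE 0.16, adjusted p = 4.05e-22) in AL mice and 3.29 (SE 0.14, adjusted p = 3.77e-24) in PBS mice, on the log2 scale.
Its partners peaked elsewhere. Col6a2 was highest in entorhinal cortex in AL mice (29.3 ± 7.7 CPM) and at a like level in motor cortex of PBS mice (24.4 ± 4.2 CPM). Col6a3 peaked in the SVZ, at 7.96, 12.3, 13.9 and 24.9 CPM in AL and 1.14, 16.3, 16.6 and 31.3 CPM in PBS mice.
Col6a4 was highest in caudate putamen (3.57 ± 0.70 CPM in AL, 3.83 ± 1.5 CPM in PBS). In AL mice corpus callosum was next at 3.33 ± 0.49 CPM, and its libraries also held caudate putamen markers (Drd1 and Ppp1r1b, median sum 2031 CPM against 3200 CPM in caudate putamen itself). Col6a5 was highest in hypothalamus at 2.88 CPM in AL and 4.27 CPM in PBS mice, level with the SVZ (2.68 and 4.16 CPM). Col28a1 reached 2.28 ± 1.0 CPM in AL olfactory bulb and 2.89 ± 1.1 CPM in PBS pons.

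Among the FACIT chains, which sit on the surface of other collagen fibrils, Col19a1 had the most stable order of regions. It read 39.5, 42.0, 46.1 and 48.95 CPM in AL motor cortex, its highest AL region, and 40.3, 45.6, 49.5 and 51.9 CPM in PBS motor cortex. Posterior hippocampus (38.0 ± 8.6 CPM) and visual cortex (36.8 ± 4.6 CPM) did not stand apart from AL motor cortex beyond their spread, whereas thalamus lay at 2.22 CPM. The cerebellum was also among the regions called higher than the rest in both AL and PBS mice. Col9a3, a chain of type IX collagen, was at 76.2 CPM in AL choroid plexus and 137.8 CPM in PBS choroid plexus. Its highest PBS mean was in corpus callosum, at 149.1 CPM. Over the 15 region means, its Spearman correlation with the summed choroid plexus markers was 0.82 in AL and 0.89 in PBS mice. In AL mice it was also 0.79 with the summed ependyma markers and 0.67 with the summed oligodendrocyte markers. Col9a3 had Pearson's r = 0.36 in AL and 0.21 in PBS mice with its partner chain Col9a1, and -0.16 and -0.34 with its partner chain Col9a2. Col14a1 was even and low, from 0.512 to 2.11 CPM in AL brain.

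Of the transmembrane collagens, Col25a1, the chain from which a plaque-associated peptide of Alzheimer's disease derives, was highest in thalamus, with 53.7, 56.9, 67.2 and 104.3 CPM in AL and 50.7, 63.6, 101.1 and 155.9 CPM in PBS mice, and lowest in cerebellum at 0.922 and 1.36 CPM. Col23a1 was highest in entorhinal cortex, at 53.4, 58.2 and 64.3 CPM in AL mice. In PBS mice 3 of the 4 entorhinal libraries read 41.9 to 46.7 CPM and 1 read 12.6 CPM, so that the PBS mean of 36.7 CPM was level with olfactory bulb (35.2 CPM). Entorhinal cortex was also the highest region of Col13a1, a chain found at cell junctions, at 5.25 ± 2.1 CPM (SD, n = 3) in AL and 3.26 ± 1.7 CPM (SD, n = 4) in PBS mice. Col17a1, known from the anchoring of skin, was highest in the cerebellum of AL mice, at 4.18, 7.82, 8.24 and 10.49 CPM.
Col18a1, a multiplexin of basement membranes whose end fragment is endostatin, was also highest in cerebellum, with 61.3, 64.3, 68.4 and 88.9 CPM in AL and 73.8, 89.8 and 114.1 CPM in PBS mice. Its contrast with the other regions was 3.24 (SE 0.18, adjusted p = 2.98e-21) in AL and 3.39 (SE 0.18, adjusted p = 2.82e-20) in PBS mice. Motor cortex, the lowest region, had 2.12 and 2.45 CPM. Col7a1, the chain of anchoring fibrils, was highest in olfactory bulb (5.16 ± 0.48 CPM in AL, 5.66 ± 1.3 CPM in PBS) and next in cerebellum. Col26a1 was highest in visual cortex and thalamus of AL mice (7.67 ± 1.0 and 7.41 ± 0.59 CPM) and lowest in cerebellum (0.567 CPM).

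The short chain network collagen Col8a1, known from the cornea and vessel walls, varied widely between choroid plexus libraries. In AL choroid plexus it read 8.44, 15.8, 66.4 and 101.8 CPM in the mice whose marker sums were 690, 1044, 6339 and 9227 CPM, so that the order of the 4 libraries was the same for both. In PBS choroid plexus, where all 4 sums lay between 8244 and 10685 CPM, it read 67.4, 68.3, 73.8 and 81.4 CPM. The Spearman correlation of Col8a1 with the summed markers over the 15 region means was 0.29 in AL and 0.48 in PBS mice. For Col8a2, its partner chain, Pearson's r with Col8a1 over the 15 region means was 0.90 in AL and 0.97 in PBS mice. Spearman's rho was 0.90 and 0.73. Col8a2 was highest in corpus callosum of AL mice and in SVZ of PBS mice. Col8a1 was highest in choroid plexus of AL mice and in corpus callosum of PBS mice. Regional means of these genes in choroid plexus, corpus callosum and SVZ carry wide spreads, such as 41.4 ± 59.7 CPM for Col8a1 in AL corpus callosum.
Chains that build one molecule were compared in the same way over the region means, which share libraries and depth. Col4a3 and Col4a4 had r = 0.93 (AL) and 0.98 (PBS), with Spearman's rho of 0.90 and 0.98, and Col1a1 and Col1a2 had r = 0.90 and 0.96. Col4a1 and Col4a2 were less alike by value (0.51 and 0.68) than by rank (rho 0.77 and 0.93). Col6a1 and Col6a2 had r = 0.53 and 0.61, and Col5a1 and Col5a2 0.24 and 0.23.

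In liver, the organ in which stellate cells lay down matrix, Col18a1, which hepatocytes are known to make, had the highest level of the collagens, with 522.7 ± 97.8 CPM (SD, n = 4 AL mice), against 12.6 CPM for the mean of the 15 brain regions of the same mice. Next came the FACIT chain Col14a1 at 39.2 ± 9.8 CPM (brain 1.04 CPM) and the fibrillar chain Col3a1 at 31.3 ± 4.7 CPM (brain 2.76 CPM). Per kilobase of exon, Col4a1 (2.67) exceeded Col4a2 (1.57 CPM per kilobase) in liver, while the order was the reverse in brain (1.62 and 3.48). The 3 leading genes kept their order per kilobase of exon, with Col18a1 at 74.4, Col14a1 at 5.59 and Col3a1 at 3.19 CPM per kilobase.
By edgeR, 33 of 43 collagen genes differed between AL liver and AL brain, against a background of 86.2% of all genes tested. Of these, 17 were called higher and 16 lower, where 38.7% of all genes were called higher and 47.5% lower. The split depended on the scaling: the TMM factors set the median log2 difference of all genes at -0.28, and library totals without factors set it at -1.22. With totals alone 13 collagen genes were called higher and 23 lower, where 22.9% and 65.9% of all genes were. The 13 were all among the 17, and the 16 lower calls were all among the 23.
The 13 genes called higher under both scalings were Col18a1 (log2 difference 6.96, SE 0.13, with TMM, and 6.00 with totals), Col14a1 (6.24 and 5.30), Col3a1 (4.65 and 3.71), Col5a3, Col6a3, Col15a1, Col10a1, Col4a3, Col27a1, Col5a1, Col4a1, Col13a1 and Col1a1. For Col4a1 the difference was 1.71 with TMM and 0.76 with totals. Col2a1, Col9a1, Col9a2 and Col22a1 had no count in any of the 4 AL liver libraries and were called lower, and Col6a5 had none either but was not called. Col19a1, at 19.4 CPM in brain, had 0.0757 CPM in liver, on 1 count in each of 2 libraries. Calls on Col4a2, Col6a1 and Col6a2 changed with the scaling: none passed with TMM, and all 3 were called lower with totals.

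**Figure D2:**
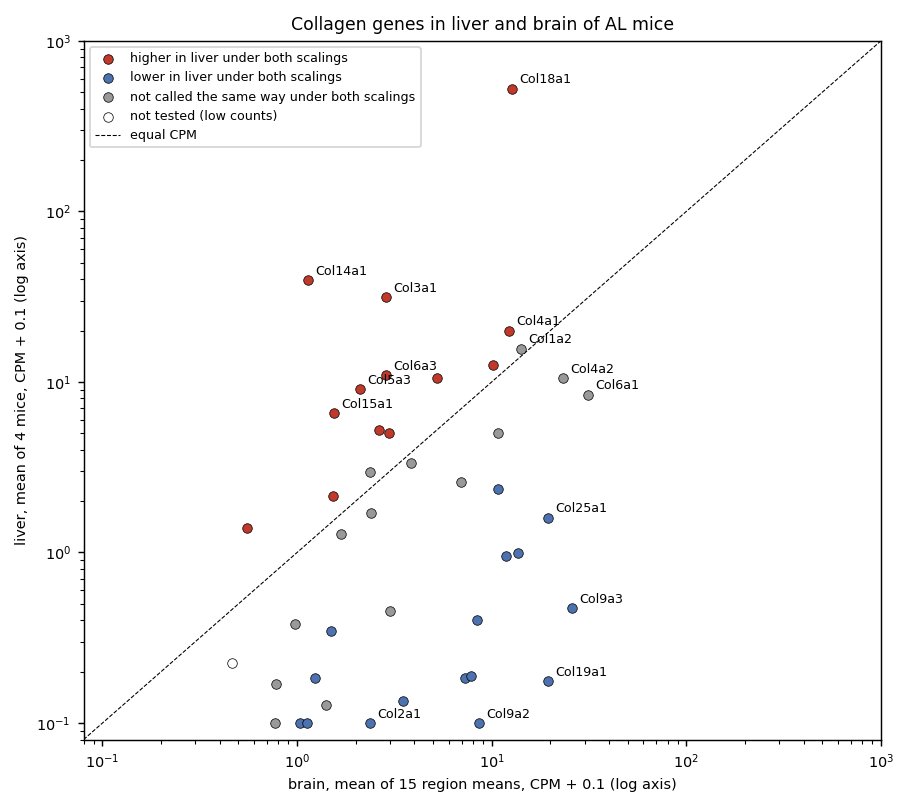
Each point is a collagen gene of AL mice: mean CPM in liver (y, 4 mice) against the mean of the 15 brain region means (x), both plus 0.1 CPM on log axes. Red genes were called higher and blue genes lower in liver under both scalings; Col18a1 lies farthest above the line of equal CPM.

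Under dietary restriction, Col4a1 fell across the brain. The test used 1 value per mouse, the mouse's mean log2 CPM (prior count 2) over its brain regions after region differences were taken out. The AL mice had values of 0.09, 0.19, 0.24 and 0.27, and the aDR mice had -0.21, -0.21, -0.13, -0.13 and -0.11. Every aDR value lay below every AL value. The change was -0.35 on the log2 scale (SE 0.043, limma adjusted p = 0.0114), the only one of 44 collagen genes called, where 0.922% of all 15616 genes tested were called. The brain regions share the same mice and enter the mouse values, so a count over regions is no separate test. By region Col4a1 was lower in aDR mice in 15 of 15 brain regions, with none of the 15 called by itself. Col4a1 ranged from -0.77 in cerebellum (SE 0.20) to -0.11 in olfactory bulb (SE 0.13). In cerebellum it read 5.94, 8.30, 8.81 and 12.7 CPM in AL mice and 4.32, 4.795, 5.20, 5.29 and 5.82 CPM in aDR mice, and these groups did not overlap. The same held in cerebellum for 3 of 31 collagen genes (9.68%) and for 4.42% of all genes tested. In motor cortex it read 9.80, 11.8, 12.4 and 13.3 CPM in AL and 6.83, 9.47, 10.03, 10.53 and 10.8 CPM in aDR mice, where 1 AL library lay among the aDR libraries. The call rests on single mice: without AL mouse 66 the adjusted p was 0.0569 (change -0.33) and without AL mouse 69 it was 0.0533 (change -0.36).

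**Figure D3:**
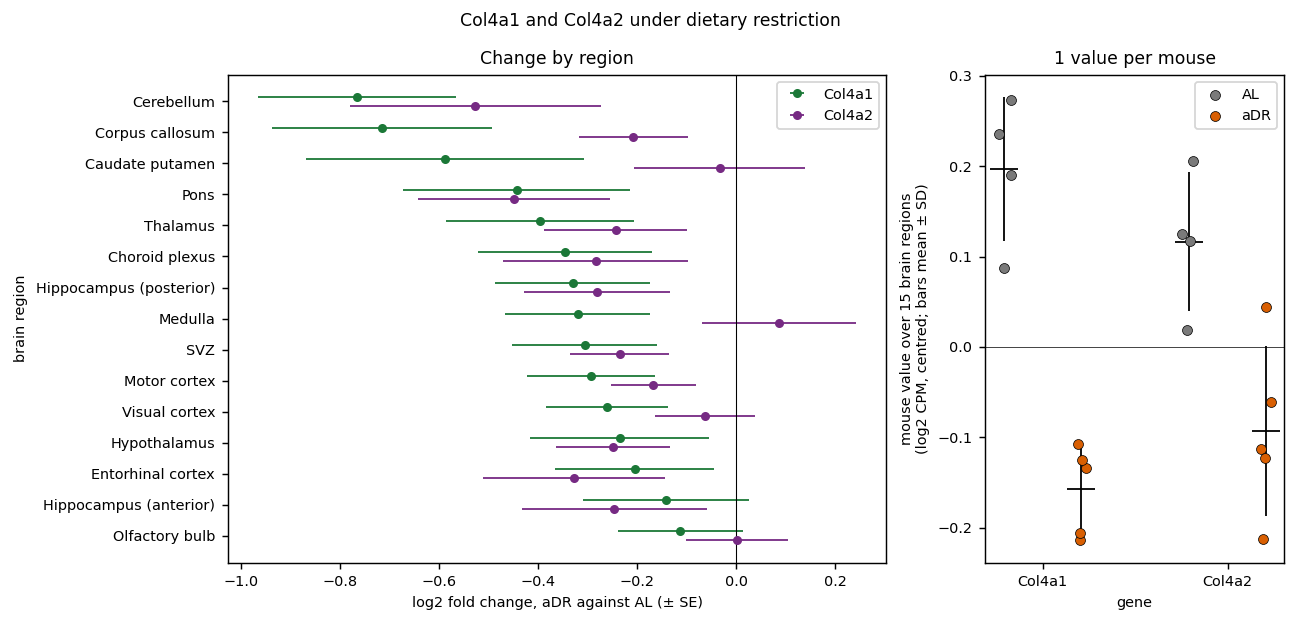
Left, log2 fold change of Col4a1 and Col4a2 in aDR against AL mice in each brain region, with SE bars; right, the value of each mouse over its brain regions, with mean and SD. All 15 Col4a1 points lie below 0, from -0.77 to -0.11, and the aDR mice lie below the AL mice.

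Col4a2, its partner chain, was at -0.21 (SE 0.055, adjusted p = 0.116), was lower in 13 of 15 regions and was not called. With the mouse as a random block over all libraries in place of 1 value per mouse, both were called, together with Col2a1. The share of all genes called that way is not given here. Most endothelial and pericyte markers were also lower in aDR mice, while 4 of 5 vascular smooth muscle markers were higher (median 0.096) with none called. Of 8 endothelial markers, 6 were lower in aDR mice and 4 were called (Cldn5 at -0.48, Tek at -0.37, Emcn at -0.35 and Flt1 at -0.26), and of 8 pericyte markers 7 were lower and Higd1b (-0.35) was called. The summed endothelial markers ranged from 106 to 296 CPM over the aDR and from 139 to 322 CPM over the AL brain libraries, and the summed pericyte markers from 80.6 to 220.0 CPM and from 98.9 to 247.3 CPM. The 5 red blood cell genes were higher in aDR mice (median 0.93) with none called. The part of these cell types in the Col4a1 result was not tested.

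Over all 44 collagen genes, 28 were lower and 16 higher in aDR mice, where 46.6% of all genes were higher. The median change was -0.10 for the collagen genes and -0.0062 for all genes. At an unadjusted p under 0.05, 13 of 44 passed (29.5%, all lower), where 16.1% of all genes did. The mouse values of 6 collagen genes (13.6%) did not overlap between the diets, against 8.3% of all genes. After Col4a1 the smallest p-values belonged to Col2a1, the main cartilage chain (-0.32, SE 0.079, adjusted p = 0.1001), Col4a2, Col26a1 (-0.19, SE 0.051, adjusted p = 0.117), Col6a6 (-0.35, SE 0.10, adjusted p = 0.140) and Col11a1 (-0.24, SE 0.069, adjusted p = 0.144). Col6a6 lay near the floor, with a mean of 0.365 CPM over the AL brain regions. For Col2a1 the aDR values ran from -0.39 to -0.0034 and the AL values from 0.03 to 0.25. By class, 8 of 11 fibrillar chains, 4 of 6 basement membrane chains and 5 of 7 beaded filament chains were lower, while 3 of 4 transmembrane chains were higher.
Among 31 genes that fold, modify and secrete collagen, 17 were lower and 14 higher with none called. Of 17 matrix partners 13 were lower and Pxdn was called (-0.27, SE 0.048, adjusted p = 0.0403). Pxdn encodes peroxidasin, which cross-links type IV collagen. Of 20 tested receptors and matrix-degrading enzymes 11 were lower and Itga1, a collagen-binding integrin subunit, was called (-0.21, SE 0.039, adjusted p = 0.0494).

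In single tissues edgeR called no collagen gene under the diet. None of 24 to 39 collagen genes tested in each of 15 brain regions, and none of 22 in liver, passed edgeR's adjusted threshold, where between 0 and 0.251% of all genes did by tissue. That share was 0.251% in motor cortex, 0.22% in olfactory bulb and in liver, 0.202% in visual cortex, 0.0524% in cerebellum, 0.0215% in corpus callosum, 0.0212% in SVZ, 0.0146% in caudate putamen and at most 0.00714% in the other 8 tissues. At an unadjusted p under 0.05, the most collagen genes passed in cerebellum (7 of 31) and visual cortex (7 of 29), where 13.4% and 9.11% of all genes passed. DESeq2 called 2 over all 16 tissues, Col16a1 in cerebellum (-1.02) and Col15a1 in liver. The share of all genes that DESeq2 called is not given here. No collagen gene was called in edgeR's test of the region by diet terms, where 2 of 15616 genes (0.0128%) were called.

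In liver the gene nearest to a change was Col15a1, a multiplexin close kin to Col18a1. It read 3.88, 5.77, 7.98 and 8.19 CPM in the AL mice and 2.31, 2.33, 2.57, 2.66 and 2.84 CPM in the DR mice. All 5 DR livers lay below all 4 AL livers, and Col15a1 was the only one of 22 collagen genes whose livers did not overlap between the diets (4.55%, against 4.27% of all genes tested). The change was -1.26 (SE 0.24, edgeR adjusted p = 0.0758), which missed the threshold, while DESeq2 gave an adjusted p of 0.00246 and edgeR without AL mouse 63 gave 0.0365. In brain the mouse values of Col15a1 did not overlap either, with a change of -0.18 (SE 0.058, limma adjusted p = 0.183), and the difference between its liver and brain changes was -0.98 (limma adjusted p = 0.179). None of 22 collagen genes was called for a change that differed between liver and brain, where 0.0881% of all genes were.
Col27a1 read 6.49, 7.44, 9.81 and 18.1 CPM in AL and 2.66, 14.3, 28.8, 48.5 and 83.1 CPM in DR livers, which overlapped (1.79, SE 0.71, adjusted p = 0.442). Col5a2 read 0.571, 2.97, 3.66, 3.80 and 42.8 CPM in DR livers against 2.14 to 4.49 CPM in AL livers. Its change of 1.997 (SE 0.98, adjusted p = 0.590) rested on DR mouse 67 and was -0.068 without that mouse. Col4a1, at -0.34 (SE 0.17, adjusted p = 0.603), and Col6a1, at 0.34 (SE 0.19, adjusted p = 0.668), overlapped between the diets in liver.

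Young plasma was followed by lower Col8a1 in the corpus callosum and by changes of Col8a1, Col9a3 and Col18a1 that differed between regions. In the corpus callosum Col8a1 read 29.2, 72.9 and 132.8 CPM in the PBS mice and 0.563 and 1.48 CPM in the YMP mice, the latter on 3 and 21 counts. The change was -6.06 on the log2 scale (SE 0.78, edgeR adjusted p = 0.0432), the only call on a collagen gene in 15 regions, where 0.184% of all genes tested in the corpus callosum and at most 0.00738% in the other regions were called. Col9a3 read 69.4, 150.7 and 227.1 CPM in PBS and 14.6 and 14.9 CPM in YMP mice (-3.36, SE 0.47, adjusted p = 0.0530). Col18a1 read 5.13, 10.9 and 22.6 CPM in PBS and 1.31 and 2.39 CPM in YMP mice (-2.76, SE 0.63, adjusted p = 0.171). The groups did not overlap for these 3, which are among 11 of 31 collagen genes (35.5%) without overlap, against 23.5% of all genes tested in the corpus callosum.
The sum of the choroid plexus markers differed in the same libraries, as given above, and 8 of the 11 markers were called lower in the corpus callosum of YMP mice (Ttr at -12.72). The part of plexus tissue in these libraries was not tested. With 2 YMP libraries the call was lost without PBS mouse 80, YMP mouse 77 or YMP mouse 81, in the latter cases on a single YMP library assumed to vary like the others.

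In the SVZ, Col8a1 read 10.998, 23.1, 74.0 and 146.3 CPM in PBS mice and 0, 0.495 and 0.773 CPM in YMP mice (-7.03, SE 1.23, adjusted p = 0.0828). Col9a3 read 78.7, 80.8, 145.9 and 252.2 CPM in PBS and 12.5, 17.0 and 39.6 CPM in YMP mice (-2.64, SE 0.58, adjusted p = 0.122). Neither pair of groups overlapped, and neither change was called. The groups did not overlap for 10 of 37 collagen genes in the SVZ, against 14.1% of all genes tested there. In the choroid plexus itself, Col8a1 read 67.4 to 81.4 CPM in PBS and 2.81, 57.1 and 87.9 CPM in YMP mice, and these groups did overlap. The low library is that of YMP mouse 73, whose marker sum was 159 CPM against 7091 and 15596 CPM in the other two.
AL and aDR mice received no plasma. In their corpus callosum Col8a1 read 1.11, 13.1 and 109.9 CPM in AL mice, whose marker sums were 49, 1217 and 11674 CPM in that order. The aDR corpus callosum read 1.51, 36.0, 51.6 and 79.5 CPM, with sums of 17, 4509, 6216 and 11645 CPM. In the SVZ Col8a1 ranged from 0.843 to 40.7 CPM in the 4 AL and from 0.886 to 83.6 CPM in the 5 aDR mice, and the sums from 70 to 3469 CPM and from 32 to 10293 CPM. The 2 sets of mice were not compared by a test.

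**Figure D4:**
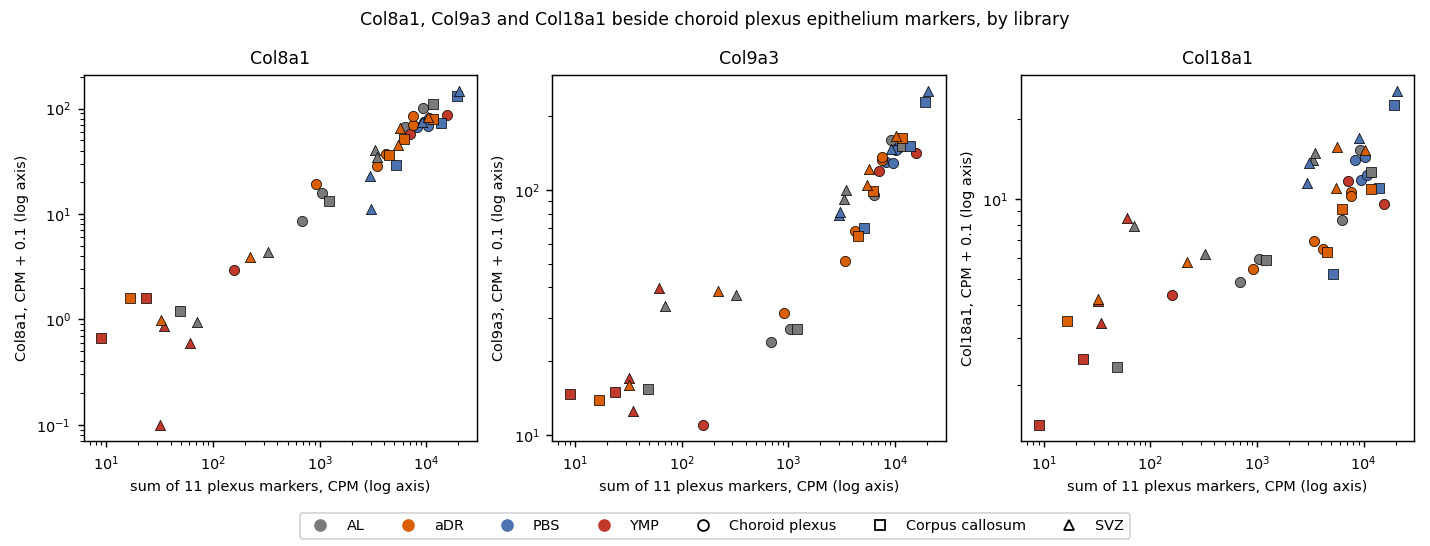
Level of Col8a1, Col9a3 and Col18a1 (y, CPM plus 0.1, log axis) against the summed level of the 11 choroid plexus markers (x, CPM, log axis) in each library of choroid plexus, corpus callosum and SVZ, coloured by treatment. The YMP corpus callosum and SVZ libraries lie at the low end of the marker sum, where some AL and aDR libraries also lie. The part of plexus tissue in these levels was not tested.

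The test of the region by plasma terms called Col8a1 (edgeR adjusted p = 3.94e-04), Col9a3 (adjusted p = 0.00232) and Col18a1 (adjusted p = 0.0428), where 0.824% of all 15768 genes were called. The change of Col8a1 lay between -7.03 in the SVZ and 0.49 in posterior hippocampus over the 14 regions in which it was tested. Col9a3 lay between -3.36 in corpus callosum and 0.18 in hypothalamus, and Col18a1 between -2.76 in corpus callosum and 0.29 in hypothalamus. Without the corpus callosum libraries 1 of the 3, Col8a1, was called, and without choroid plexus, corpus callosum and SVZ none was. None of the 3 was called without YMP mouse 77 or YMP mouse 81. The call on Col18a1 was also lost without PBS mouse 72, 76 or 80 or YMP mouse 73 (adjusted p = 0.228, 0.255, 0.102 and 0.0877).

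Across the brain, with 1 value per mouse, no collagen gene was called under plasma by limma, and neither was any of the 15768 genes tested. At an unadjusted p under 0.05, 14 of 44 collagen genes passed (31.8%, against 8.09% of all genes), and 13 of those 14 were lower in YMP mice. The mouse values of 13 collagen genes (29.5%) did not overlap, against 10.1% of all genes. In all, 34 collagen genes were lower and 10 higher, where 48.2% of all genes were higher. The median change was -0.13 for the collagen genes and -0.0037 for all genes. Col17a1 had the smallest p (-0.41, SE 0.046, adjusted p = 0.192), with values of 0.12, 0.16, 0.19 and 0.23 in PBS and -0.28, -0.21 and -0.21 in YMP mice. Col9a3 (-0.64, SE 0.11, adjusted p = 0.335), Col8a1 (-1.29, SE 0.24, adjusted p = 0.335), Col18a1 (-0.50, SE 0.11, adjusted p = 0.340), Col4a3 (-0.75, SE 0.18, adjusted p = 0.389) and Col4a5 (-0.38, SE 0.097, adjusted p = 0.416) followed. With the mouse as a random block over all libraries, 6 collagen genes were called lower, namely Col17a1, Col4a3, Col4a4, Col8a1, Col8a2 and Col9a3. The share of all genes called under that setting is not given here.
All 11 choroid plexus markers (median -1.20) and all 10 meningeal and perivascular fibroblast markers (median -0.37) were lower in YMP mice across regions, with none called. All 5 oligodendrocyte (median -0.15), 4 ependyma (-0.083) and 5 red blood cell markers (-0.32) were lower as well, with none called. Of 8 endothelial markers 6 were lower (median -0.11). Lower too were 3 of 5 vascular smooth muscle, 2 of 3 astrocyte and 2 of 3 oligodendrocyte precursor markers. Pericyte markers were split, with 4 higher and 4 lower, and all 3 neuronal markers were higher, again with none called. Without choroid plexus, corpus callosum and SVZ, a setting chosen after seeing the data, the changes were -0.010 for Col17a1, -0.26 for Col9a3, -0.54 for Col8a1, -0.26 for Col18a1, -0.36 for Col4a3 and -0.26 for Col4a5. The part of plexus tissue and of the other cell types in these changes was not tested.

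**Figure D5:**
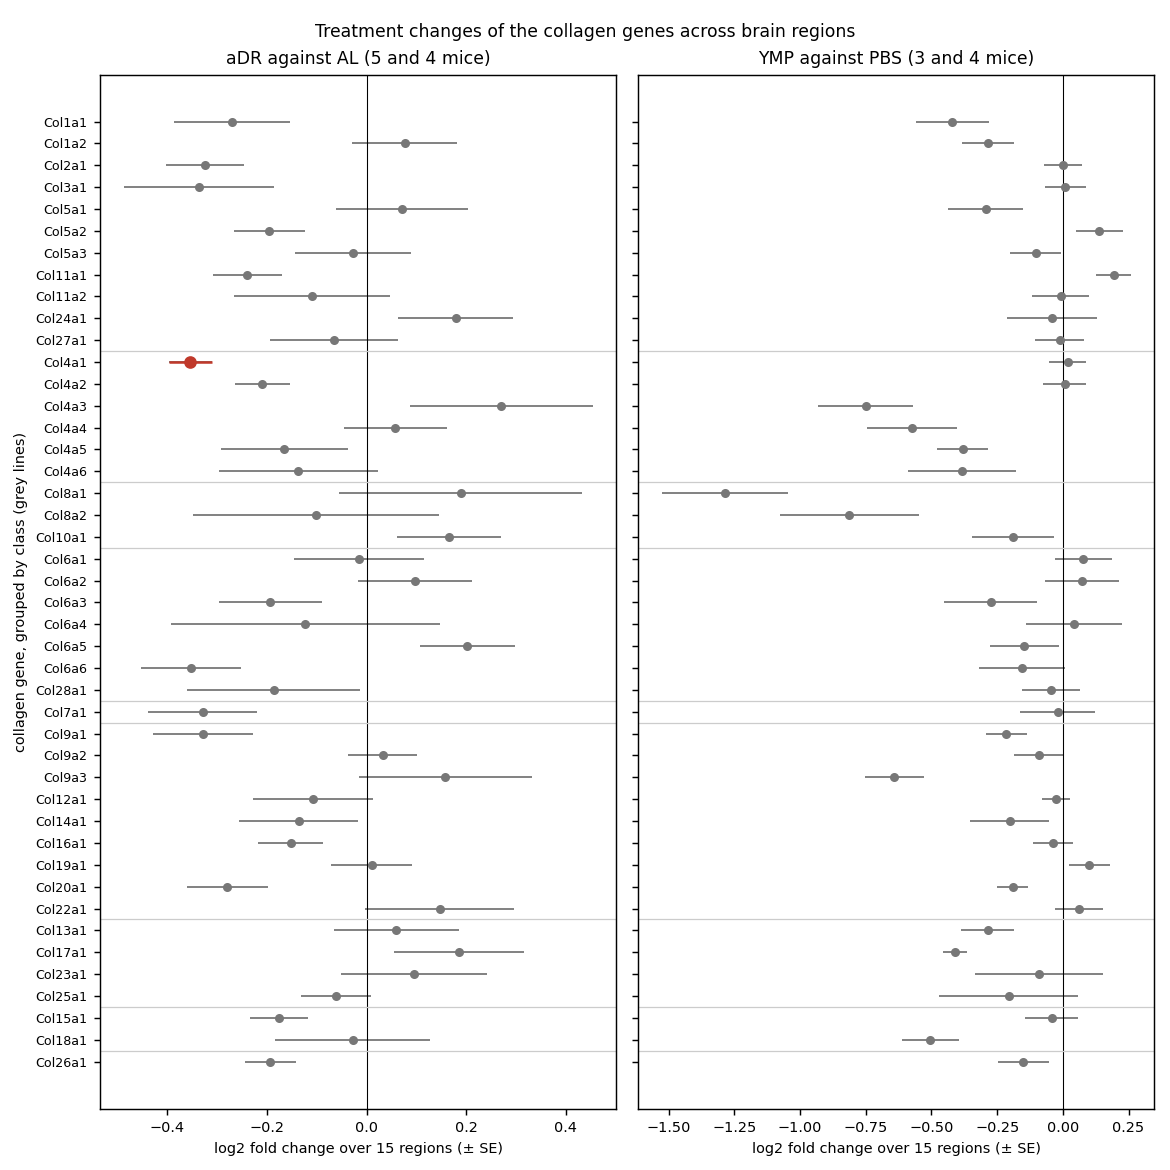
Log2 fold change of each collagen gene (rows, grouped by class) over the 15 brain regions, with SE bars, for aDR against AL mice (left) and YMP against PBS mice (right). Red marks an adjusted p under 0.05: Col4a1 under diet, at -0.35, and no gene under plasma, where Col8a1 lies farthest from 0 at -1.29.

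By class under plasma, all 3 short chain network chains, all 4 transmembrane chains, 4 of 6 basement membrane chains, 8 of 11 fibrillar chains, 4 of 7 beaded filament chains and 7 of 9 FACIT chains were lower. Col4a1, which was called lower under the diet, and its partner Col4a2, which was not, were at 0.02 (SE 0.070) and 0.0071 (SE 0.081) under plasma. Of the 30 collagen-processing genes tested 22 were lower, as were all 17 matrix partners and 16 of 21 receptors and matrix-degrading enzymes, with none called across regions. In the corpus callosum Pcolce, an enhancer of procollagen cleavage, was called lower (-4.02, SE 0.53, edgeR adjusted p = 0.0495), as was the fibroblast marker Igf2 (-4.93, SE 0.61, adjusted p = 0.0397).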

How the data were processed

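Whole-number counts per gene were deposited by the authors for 238 libraries (229 from brain and 9 from liver). Per the submitters' processing notes, Trim Galore 0.3.7, STAR 2.5.3a, DESeq2 and GRCm38 were used; the counting program and gene annotation are not given in the sources used here. Per the labels' protocols the libraries were made with Smart-Seq2 and Nextera XT chemistry, which does not mark strand, so reads of overlapping genes cannot be told apart (13 collagen genes share exonic bases with another gene). Replicates are separate mice, and the tissue of each library was homogenised whole.

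Counts were tested with edgeR 4.0.16 (R 4.3.3; quasi-likelihood, TMM scaling, filterByExpr with a minimum count of 10 and total of 15) within regions, between regions and for region by treatment terms. Effects across regions were tested with limma 3.58.1 on 1 value per mouse (log2 CPM, prior count 2). All p-values were adjusted by Benjamini-Hochberg over all genes tested, at 0.05. Scripts were tested on simulated data. DESeq2 1.42.0, other filters, priors and scalings, the mouse as a block and leaving out single mice were the alternatives.

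Within an experiment, libraries of the same mouse deviated together weakly (mean correlation 0.0458 in the diet and 0.104 in the plasma experiment, against -0.00568 and -0.0174 for other mice). The least different pair of 357 replicate pairs had a chi-square of 1.29 per degree of freedom, so none was treated as a duplicate. CPM per kilobase used the GENCODE M21 union exon length. The genes named with values were, by class, the highest in AL brain, the 10 with the largest and 5 with the smallest ratio of highest to median region, those called under a treatment, the 6 with the smallest p across regions and the 5 with the smallest p in liver; other genes were named after their values were seen. The members and gene lists were chosen with earlier results of these data known.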

Additional observations from a re-analysis of the deposited data

Results flagged for a closer look

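In pons, Col1a2 stood at 513.0 CPM (2094 counts) in aDR mouse 67, far from the other 4 aDR mice at 6.91 to 29.6 CPM. Col24a1 was likewise at 30.6 CPM in that library against 0.523 to 0.996 CPM in the other aDR mice, while Col1a1 (4.41 CPM) and Col3a1 (3.68 CPM) lay within the range of the others. The 10 most abundant genes of that library held 23.4% of its counts, against 5.72% to 7.12% in the remaining 8 AL and aDR libraries of pons, and their part in these values was not tested. In liver, Col5a2 stood at 42.8 CPM in DR mouse 67 against at most 3.80 CPM in the other DR mice. These 3 were found among 36 groups of 4 or 5 libraries tested for a value far from the others, where chance gives about 1.8.

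The change under plasma differed between regions for Col8a1 (edgeR adjusted p = 3.94e-04), Col9a3 (adjusted p = 0.00232) and Col18a1 (adjusted p = 0.0428). The summed choroid plexus markers differ in the same corpus callosum and SVZ libraries, and their part in this was not tested.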

How the results depend on the processing

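Under the diet within tissues, where edgeR called 0 collagen genes, DESeq2 called 2 and leaving out single mice gave 0 to 1. Across regions under the diet, 1 was called, against 3 with the mouse as a replicate block over all libraries and 6 with no replicate block, and leaving out single mice gave 0 to 1 (0 without AL mouse 66 or 69). Within regions under plasma, 1 was called, against 17 by DESeq2 and 7 with no filter on low counts, and leaving out single mice gave 0 (PBS mouse 80, YMP mouse 77 or 81) to 9 (PBS mouse 84), with 5 without PBS mouse 72 and 2 without PBS mouse 76. Across regions under plasma, 0 were called, against 6 with the replicate block and 9 with no replicate block. Of the 3 genes whose plasma change differed between regions, 1 was called without corpus callosum and 0 without choroid plexus, corpus callosum and SVZ, and leaving out single mice gave 0 to 3. Col5a2 in liver was at 1.997, turned to -0.068 without DR mouse 67 and otherwise reached 2.26 with single mice left out. With the replicate block, the number of collagen genes differing between regions stayed at 43 in AL mice. Leaving out single mice gave 41 to 43 genes in AL and in PBS mice, 493 to 561 of 572 calls of a gene in a region, and 30 to 32 of 33 genes between liver and brain. Liver against brain gave 17 higher and 16 lower genes with TMM and 13 higher and 23 lower with library totals. The settings without the 3 regions and with library totals were chosen after seeing the data. Apart from library totals, the share of all genes called under these alternatives is not given here. A larger count of collagen genes may therefore go with more calls among all genes. The cause of these shifts was not tested. Depth limits the low genes: Col6a6 passed the filter in neither control group, and groups of 2 to 5 libraries limit all tests within regions.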
